A study of Mus musculus with 8 samples.

Results

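The peak-dense megabase windows are the 1 Mb stretches of the mouse autosomes (build mm9) in which peaks of 5-hydroxymethylcytosine (5hmC) were most crowded in the hippocampus. Each peak was counted in the window that held its midpoint, and the windows were chosen by their measured peak counts: a window was kept where it held a mean of 50 or more peaks per list over the 8 samples. This gave 273 windows of the 2174 autosomal windows with a peak (12.6%), and they held 153123 of the 393154 autosomal peaks of all lists (38.9%). The density of these windows is therefore how they were chosen and not a result. The rule used unscaled counts, so the longer lists weighed more in the choice.

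5hmC is an oxidised form of 5-methylcytosine made by the TET enzymes, and the brain is among the tissues richest in it. In neurons it lies mostly within the bodies of expressed genes and at enhancers, and it accumulates as the brain matures. A chemical-labelling experiment attaches a modified glucose and then biotin to 5hmC, captures the labelled fragments on streptavidin beads and sequences them, so that a peak marks a place where captured fragments pile up.

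The 8 libraries came from hippocampus of C57BL/6 mice in 4 groups of 2 samples. The young control and young enriched mice were labelled as 6 weeks old, and the aged control and aged enriched mice as 18 months old. Enriched mice spent 5 h a day over 4 weeks in a roomier chamber furnished with tunnels, toys, extra bedding and a running wheel, and control mice stayed in standard cages. Nothing in the labels ties the 2 samples of a group to different animals, and the p-values below therefore describe variation among these libraries, part of which may be technical. The protocol names 2 sonicators and does not say which sample went through which.

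The lists held 25548 to 78980 peaks. The short lists were those of the aged enriched samples, and the list of young control replicate 2 was the longest. Read depth was unknown. Aged enriched replicate 2 stood apart from the other 7 samples, with narrow peaks and mostly high scores, so the comparisons of windows between groups below are also given without it. The reference annotation at hand was of another build than mm9, so no gene was assigned to any window and no sequence was read.

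Within the 273 dense windows the mean number of peaks per list ran from 50.1 to 136, with a median of 63.5. Over the other tested windows, 1275 windows with a mean of 5 to under 50, the median was 21.4. There were 27 windows with a mean of 100 or more, 90 with 75 or more and 108 with 50 to under 60. At the edge of the rule, the windows on chromosome 4 at 127 to 128 Mb, chromosome 5 at 102 to 103 Mb and chromosome 2 at 163 to 164 Mb stood at 50.1, 50.4 and 50.4 peaks. Just outside it, the windows on chromosome 6 at 31 to 32 Mb, chromosome 8 at 14 to 15 Mb and chromosome 9 at 96 to 97 Mb each stood at 49.9. The threshold thus fell within a continuous range of densities, and 167 further windows held 40 to under 50 peaks.

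The densest window lay on chromosome 8 at 122 to 123 Mb, with 136 ± 50.4 peaks per list (SD, n = 8). It held 109 and 191 peaks in the young control samples and 147 and 167 in the young enriched samples. In the aged control samples it held 199 and 137 and in the aged enriched samples 72 and 66 (replicates 1 and 2 in that order, here and below). Aged control replicate 1 held the most and aged enriched replicate 2 the fewest, and 199 was the highest count of any list in any dense window.

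On chromosome 4 at 137 to 138 Mb, the next in order, the young control samples had 113 and 178 peaks, the young enriched samples 128 and 147, the aged control samples 169 and 122 and the aged enriched samples 76 and 64. The window on chromosome 2 at 166 to 167 Mb held 114 and 185, 151 and 149, 160 and 102, and 52 and 69 peaks in the same order of groups. The window on chromosome 8 at 124 to 125 Mb held 107 and 184, 142 and 141, 169 and 112, and 65 and 52 peaks. In all 3 the aged enriched samples were the lowest, as they were in list length.

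Of the other 6 among the 10 densest, 2 lay on chromosome 4 (140 to 141 and 141 to 142 Mb), 2 on chromosome 11 (113 to 114 and 117 to 118 Mb), 1 on chromosome 5 (114 to 115 Mb) and 1 on chromosome 1 (91 to 92 Mb). Their means ran from 115 to 117 peaks per list with SDs of 37.1 to 47.6 (n = 8). These SDs are over unscaled counts of lists of unequal length, so they do not measure whether 2 windows differ. The order of these windows was not tested.

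**Figure D1:**
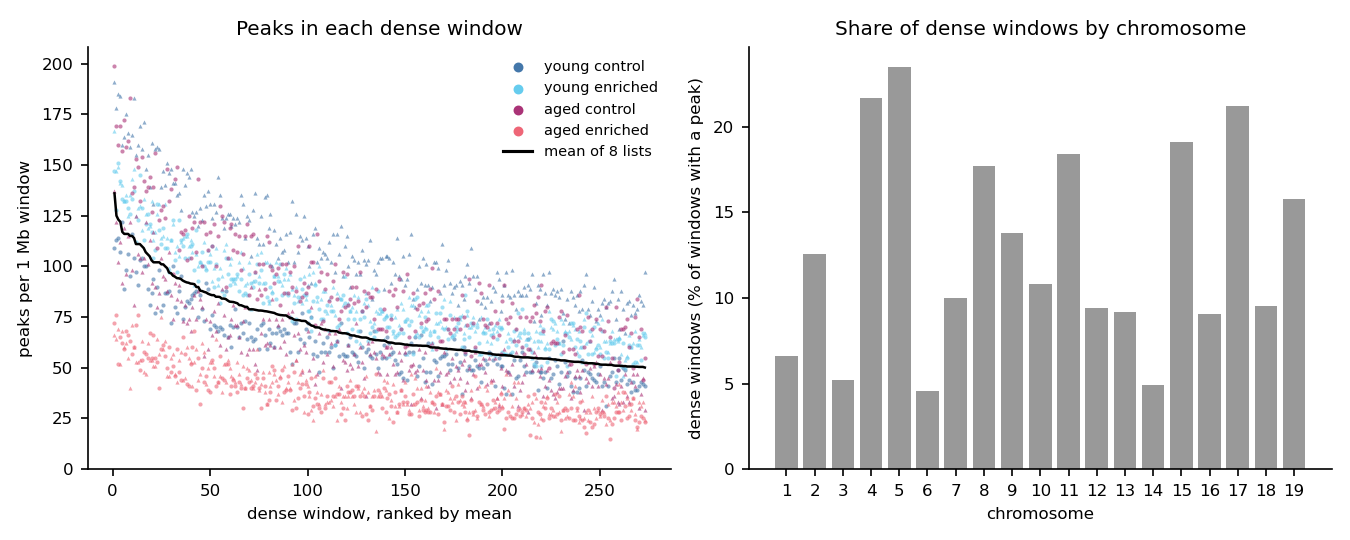
The left panel plots the number of peaks in each of the 273 dense windows, ranked by their mean over 8 lists (black line, 136 to 50.1 peaks), with 1 point for each sample coloured by group (circles are replicate 1, triangles replicate 2). The right panel gives, for each autosome, the percentage of its 1 Mb windows with a peak that were dense, from 4.55% on chromosome 6 to 23.5% on chromosome 5.

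Dense windows were spread over all 19 autosomes in unequal shares. Chromosome 5 had 31 of them (23.5% of its windows with a peak), chromosome 4 had 30 (21.7%), chromosome 17 had 17 (21.2%) and chromosome 15 had 18 (19.1%). Chromosomes 6, 14 and 3 had the smallest shares, with 6 windows (4.55%), 5 windows (4.90%) and 7 windows (5.19%). On chromosome 4 the dense windows held 62.6% of the chromosome's peaks, on chromosome 5 55.6%, and on chromosome 6 14.6%.

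The windows lay next to each other more often than alone: 159 of 273 (58.2%) had a dense neighbour. They formed 166 uninterrupted runs, of which 114 were single windows and 23 were runs of 3 or more that together held 101 windows. The longest runs had 8 windows each, on chromosome 11 at 113 to 121 Mb (mean 95.2 peaks per window and list), on chromosome 8 at 122 to 130 Mb (92.5) and on chromosome 4 at 134 to 142 Mb (90.4). A run of 7 windows on chromosome 17 at 25 to 32 Mb had a mean of 77.6 and a run of 6 on chromosome 5 at 111 to 117 Mb one of 87.7. The 3 longest runs contain 7 of the 10 densest windows.

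Mouse autosomes have their centromere at the start of the coordinates, so the end of the coordinates is the distal telomere. Of the dense windows, 113 (41.4%) lay within 20 Mb of the chromosome's last peak, against 20.2% of all 1548 tested windows. The median distance to the last peak was 27.1 Mb for dense and 55.0 Mb for all tested windows. The last 20% of a chromosome's length held 130 dense windows (47.6%, against 26.4% of the tested windows), and the first 20% held 27 (9.89%) and 216 of the 1548 tested windows. These are shares of windows along a sequence, which are not independent of each other, and they carry no test.

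Within a window the peaks were spread over its length. With each window divided into 10 parts of 100 kb, every part held a peak in at least 1 list in 259 of the 273 windows, and 14 windows had an empty part. The fullest part held a median of 21.7% of a window's peaks, with a range of 12.1% to 48.6%. The highest value belonged to chromosome 15 at 58 to 59 Mb. In the densest window, on chromosome 8, the parts held 51 to 196 peaks over the 8 lists, and the fullest parts were its last ones, at 179 and 196 peaks.

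The dense windows took 34.7% to 43.0% of a sample's autosomal peaks. The share was 38.5% (95% exact binomial interval 38.1% to 39.0%, Clopper-Pearson) and 37.2% (36.9% to 37.6%) in the young control samples, and 38.2% (37.8% to 38.6%) and 38.8% (38.4% to 39.2%) in the young enriched samples. It was 41.8% (41.4% to 42.2%) and 43.0% (42.5% to 43.5%) in the aged control samples, and 39.5% (38.9% to 40.1%) and 34.7% (34.2% to 35.3%) in the aged enriched samples. The intervals cover counting error only. Both aged control samples were above every other sample, and aged enriched replicate 2 was the lowest.

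By group, young control mice had a share of 37.9% ± 0.935 and young enriched mice one of 38.5% ± 0.393 (SD, n = 2 each). Aged control mice had 42.4% ± 0.881 and aged enriched mice 37.1% ± 3.36 (SD, n = 2 each). Aged samples exceeded young samples by 1.57 percentage points, which did not pass an exact two-sided permutation test over 4 against 4 samples (p = 0.400, adjusted over 8 such tests 0.400). Without aged enriched replicate 2 the difference was 3.25 points (exact permutation p = 0.0286, the smallest that 3 against 4 samples can give), and with lists of equal length it was -2.16 points (p = 0.571, exact permutation test). Lists of equal length kept the best-scoring peaks of each list, up to the length of the shortest list. The difference between enriched and control samples was -2.34 points (exact permutation p = 0.257, adjusted 0.343).

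In aged mice alone the difference between enriched and control was -5.30 points, and in young mice it was 0.618 points. With 2 samples a group, no permutation p can go below 0.333, so neither was tested. The aged difference was -7.67 to -2.92 points when any 1 of the 8 samples was left out. It was -10.1 points with peaks of score 100 or more and -9.68 with equally long lists. Neither cut falls evenly on the lists. A score of 100 or more kept 12.7% and 71.5% of dense-window peaks in aged enriched replicates 1 and 2. Equal length left the list of aged enriched replicate 1 uncut and dropped low-scoring peaks from the others. The aged difference was -1.07 points with each sample's windows chosen by the same threshold on the other 7 lists, which changes their number. The young difference was smaller than the gap between the young control samples, and without young control replicate 2 it was -0.0432 points.

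The length covered differed more between samples than the share of peaks did. Peaks covered 6.80% and 12.8% of the dense windows' length in young control samples and 8.34% and 9.37% in young enriched samples. They covered 9.65% and 5.21% in aged control samples, and in aged enriched samples 2.76% and 1.78%. The aged enriched samples were the lowest and did not overlap any other group. In the other tested windows the same coverage was 0.656% to 3.92%, with the same samples at both ends. The ratio of aged to young coverage was 0.436 (-1.20 on the log2 scale, exact permutation p = 0.114, adjusted 0.343). Without aged control replicate 1 the log2 value was -1.62 (exact permutation p = 0.0286, the smallest possible there). The ratio of enriched to control was 0.544 (-0.88 on the log2 scale, exact permutation p = 0.257, adjusted 0.343). Coverage moves with list length and peak width, and their part in it was not tested.

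The median distance between neighbouring peaks in dense windows was 3166 to 5928 bp in the 4 young and 2 aged control samples, and 11186 and 11575 bp in the aged enriched samples. A dense window held 2.63 to 3.61 times as many peaks as the average other tested window, a ratio that the rule itself raises. This ratio was 3.43 and 3.61 in the aged control samples and 2.87 to 3.06 in the 4 young samples.

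**Figure D2:**
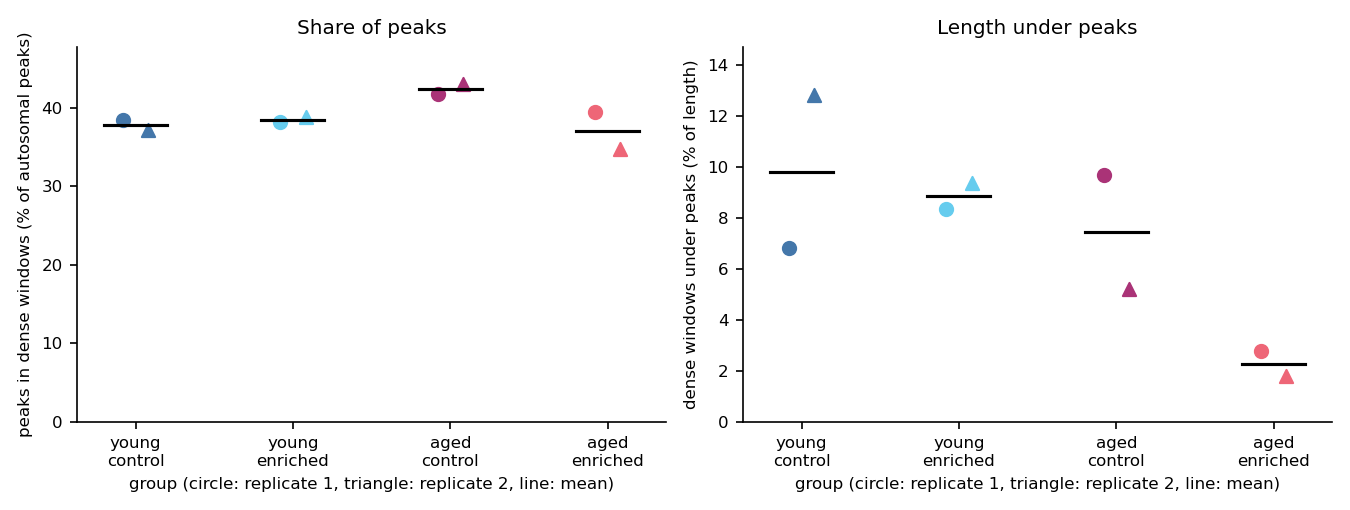
For each group, the left panel shows the percentage of a sample's autosomal peaks that lay in dense windows, and the right panel the percentage of the dense windows' length under peaks. Each point is a sample (circle replicate 1, triangle replicate 2) and the line is the mean of the group: the aged control samples are highest on the left (41.8% and 43.0%) and the aged enriched samples lowest on the right (2.76% and 1.78%).

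Peak width and peak score were not themselves used to choose the windows. The same 8 lists chose them, however, and only peaks past the caller's cutoff were counted. Width and score are thus not independent of the rule. The median peak in a dense window was 971 and 1012 bp wide in young control samples and 915 and 966 bp in young enriched samples. In aged control samples it was 923 and 776 bp wide, and in aged enriched samples 675 and 434 bp. In the other tested windows the medians were 895 and 927, 840 and 889, 836 and 717, and 638 and 428 bp in the same order. Peaks were thus wider in dense windows in 8 of 8 samples, by a mean of 1.08-fold (log2 0.11, SD 0.0387, n = 8). An exact two-sided sign-flip permutation test gave p = 0.00781, the smallest that 8 samples allow (adjusted over 2 tests 0.0156). The ratio was smallest in aged enriched replicate 2, at 1.01, and ran from 1.06 to 1.10 in the other 7.

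The peak score is the authors', as written by the peak caller MACS, and it is -10 times the log10 of the p-value, with a lowest value of 50.0 in the lists. The share of dense-window peaks with a score of 100 or more was 28.0% and 39.1% in young control samples and 29.4% and 31.3% in young enriched samples. In aged control samples it was 30.8% and 21.6%, and in aged enriched samples 12.7% and 71.5%. In the other tested windows it was 19.8% and 28.2%, 20.6% and 21.6%, 21.0% and 14.5%, and 8.34% and 72.5%. The share was higher in dense windows in 7 of 8 samples, by a mean of 7.23 percentage points (SD 3.88, n = 8, exact sign-flip permutation p = 0.0156, adjusted over 2 tests 0.0156). The exception was aged enriched replicate 2, at -0.997 points.

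Both the median width and the share of high-scoring peaks were larger at each step of density in 7 samples, all but aged enriched replicate 2. From windows with a mean of 5 to under 15 peaks to those with 100 or more, the median width went from 869 to 1066 bp in young control replicate 2, from 788 to 957 bp in young enriched replicate 1 and from 622 to 686 bp in aged enriched replicate 1. The share of peaks with a score of 100 or more went from 20.6% to 45.8%, from 14.2% to 34.8% and from 5.85% to 15.3% in these samples. In aged enriched replicate 2 the width went from 424 to 437 bp and the share from 72.3% to 72.1%.

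Wide peaks were a small part of the dense windows. Peaks of 2 kb or more made up 4.71% and 7.96% of dense-window peaks in young control samples and 3.82% and 5.58% in young enriched samples. In the aged control samples they made up 4.96% and 1.5%. In the aged enriched samples they made up 0.297% and 0%. In young control replicate 2 the share was 12.0% in the 27 windows with a mean of 100 or more peaks and 1.67% in those with 5 to under 15.

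**Figure D3:**
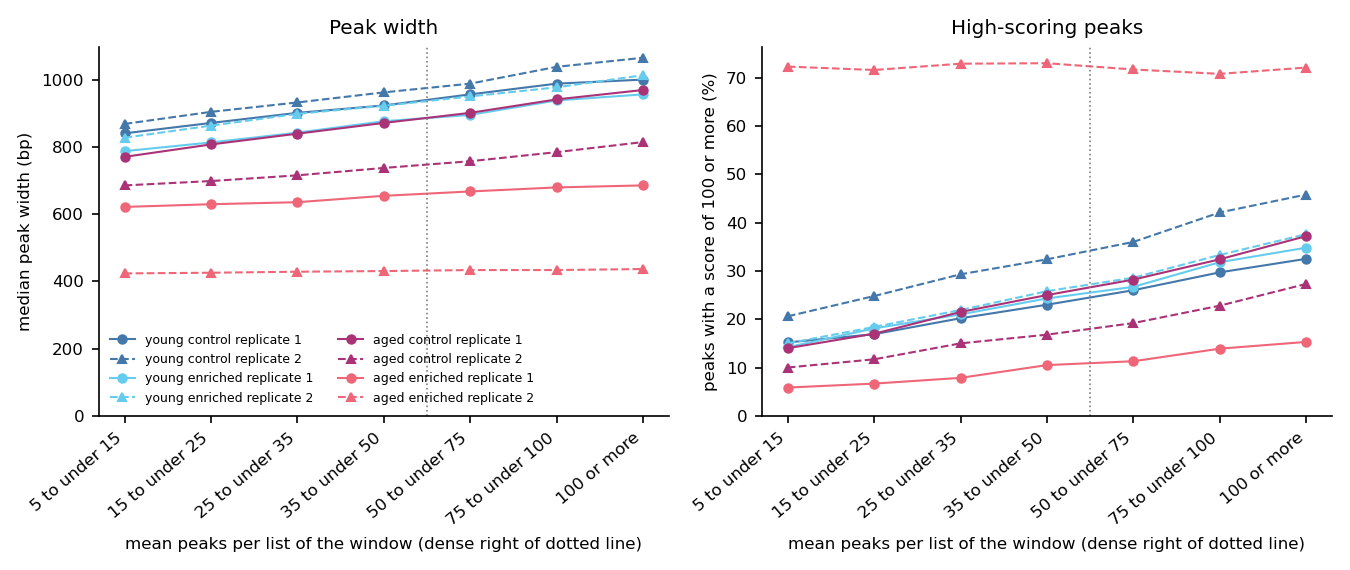
Median peak width in bp (left) and the percentage of peaks with a score of 100 or more (right) are plotted against the mean number of peaks per list of the window, in 7 classes, with 1 line for each sample and the dense classes to the right of the dotted line. The lines of 7 samples rise with density, while those of aged enriched replicate 2 run from 424 to 437 bp and between 70.8% and 73.0%.

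Overlapping peaks of the 8 lists (1 bp or more in common) were joined into regions, which gave 50619 regions in dense windows (32.3% of 156660 on the autosomes). Most regions came from few samples: 38.2% (95% exact binomial interval 37.8% to 38.7%) of those in dense windows had a peak in 1 sample, against 49.7% in the other tested windows. A peak in all 8 samples was found in 1208 regions, 2.39% (2.26% to 2.52%), against 0.837% (0.782% to 0.895%) in the other tested windows. With peaks of score 100 or more only, the shares were 0.979% and 0.392%. Without aged enriched replicate 2, where 7 samples have to share a region, they were 4.60% and 1.86%, and without aged enriched replicate 1 they were 4.10% and 1.64%. Regions are not independent of each other and the rule favours crowded places, so these shares carry no test. Dense windows held 58.7% of the 2058 regions shared by all samples.

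The shared regions in dense windows were wide, with a median of 2882 bp against 715 bp for regions of 1 sample. In the other tested windows the medians were 2548 and 692 bp. A region spans all the peaks joined in it, so each further peak can only widen it. Regions shared by all 8 samples were present in 257 of the 273 dense windows and missing from 16, with a median of 4.00 per window. The window on chromosome 5 at 115 to 116 Mb held the most, 17 of its 206 regions. It was followed by chromosome 5 at 125 to 126 Mb with 15 and by chromosome 1 at 91 to 92 Mb and chromosome 4 at 137 to 138 Mb with 14 each.

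For the 5 shared regions with the highest median score in dense windows, the best score of each sample is given. Scores differ between the lists as a whole, so these values do not measure a difference at a single place. The first, chr10:79773475-79782641, was 9167 bp long, and its best peak scored 1238 and 1333 in young control samples and 746 and 1478 in young enriched samples. In aged control samples it scored 926 and 248, and in aged enriched samples 205 and 177. All 4 young samples and aged control replicate 1 were above the other 3 aged samples. On chromosome 4, chr4:141024220-141034012 (9793 bp) scored 825 and 1265, 1003 and 578, 718 and 830, and 451 and 187. Its neighbour chr4:141015309-141023382 (8074 bp) scored 787 and 829, 564 and 672, 1320 and 295, and 157 and 110.

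The region chr15:76006282-76015190 (8909 bp) scored 690 and 974, 478 and 1250, 833 and 543, and 97.6 and 311, and chr5:139899925-139906028 (6104 bp) scored 758 and 856, 595 and 659, 614 and 420, and 101 and 298. In each of the 5 regions both aged enriched samples scored below the other 6. The share of all shared regions with this order was not counted, and the 5 were picked by their scores. Scores depend on read depth, so lists cannot be compared by them in absolute terms. Young control replicate 2 was above replicate 1 in all 5 regions, and aged enriched replicate 2 was above replicate 1 in the last 2 and below it in the first 3.

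Regions that followed a group were compared with the 32.3% of all regions that lay in dense windows. Of all regions, 46.7% had a peak in 1 sample only, while every pattern below needs peaks in more than 1 sample. Dense windows held 19360 of the 73198 regions of 1 sample and 1208 of the 2058 shared by all 8. The 32.3% is thus not matched for the number of samples, and an excess over a matched share was not tested. Of the 8778 regions with a peak in both aged control samples and in neither aged enriched sample, 3990 were in dense windows (45.5%). Of the 880 with the reverse pattern, 253 were (28.8%). In young mice the shares were 32.4% of 4355 regions with peaks in both control and no enriched sample, and 32.1% of 3342 regions with the reverse. Regions of all 4 young and no aged sample had 461 of 1401 in dense windows (32.9%), and those of all 4 aged and no young sample 7 of 15. The aged control lists were longer than the aged enriched ones, and the part of list length in these counts was not tested.

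Peaks in each window were then compared between groups as the log2 of the count plus 1 per 1000000 peaks of the list, with limma over all 1548 tested windows and p-values adjusted by Benjamini-Hochberg over all of them. A window was called where its adjusted p was under 0.05, and all 273 dense windows entered the test. Scaling to list length removes the difference in the number of peaks called, so the values show how each list was distributed over the genome. The count per 1000000 peaks of the list is called the normalised count below. The smallest count of any list in a dense window was 15.

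No dense window passed the test of aged against young mice: limma called 0 of 273, and 0% of all tested windows. At an unadjusted p under 0.05 there were 32 dense windows (11.7%, against 9.63% of all tested). The median log2 difference, aged minus young, was 0.06 in dense and -0.02 in all tested windows, and in dense windows it was -0.02 under quantile normalization and -0.09 with lists of equal length. The smallest p belonged to chromosome 5 at 134 to 135 Mb (log2 0.44 ± 0.13 SE, limma adjusted p = 0.232) and chromosome 11 at 35 to 36 Mb (-0.45 ± 0.13, 0.232). In the former the young control samples had 50 and 74 peaks, the young enriched samples 62 and 57, the aged control samples 92 and 52, and the aged enriched samples 33 and 41. Without aged enriched replicate 2, limma called 39 dense windows (14.3%, against 6.64% of the windows tested in that fit), 36 of them higher in aged mice (13.2%, against 3.61% called higher). It called 2 without aged enriched replicate 1 (0.733%, against 0.640%).

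Enriched against control housing over both ages gave 0 called dense windows, against 0.0646% of all tested windows (1 window, higher in enriched mice). At an unadjusted p under 0.05, limma had 36 dense windows (13.2%, against 13.4% of all tested). The extremes were chromosome 4 at 147 to 148 Mb (log2 -0.43 ± 0.13 SE, limma adjusted p = 0.253) and chromosome 13 at 43 to 44 Mb (0.40 ± 0.13, 0.265). Without aged enriched replicate 1 limma called 46 (16.8%, against 8.32% of the windows tested in that fit), 41 of them lower in enriched mice. It called 6 without aged enriched replicate 2, all lower (2.20%, against 0.838% called lower).

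In aged mice, limma called 12 dense windows (4.40%) for enriched against control housing, against 3.62% of all tested windows. Of these, 11 were lower in enriched mice (4.03%, against 1.23% of all tested windows called lower) and 1 was higher (against 2.39% called higher). The share called in either direction was thus near the background. Under quantile normalization the calls in dense windows were 2 higher and 0 lower. The median log2 difference was -0.19 in dense and 0.11 in all tested windows, with 201 dense windows below 0 and 72 above. Under quantile normalization the medians were -0.05 and -0.01. In dense windows the median was -0.33 with equally long lists, -0.07 without aged enriched replicate 2 and -0.26 without aged enriched replicate 1.

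The window with the smallest p lay on chromosome 4 at 147 to 148 Mb, in a run of 5 dense windows. The young control samples had 51 and 92 peaks there, the young enriched samples 65 and 70, the aged control samples 94 and 50, and the aged enriched samples 17 and 28. As normalised counts these were 1167 and 1165, 1131 and 1177, 1586 and 1316, and 665 and 908. The 4 young samples lay close together, with the aged control samples above and the aged enriched samples below them, and the log2 difference was -0.85 ± 0.19 (SE, limma adjusted p = 0.0156).

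On chromosome 15 at 73 to 74 Mb there were 65 and 53 peaks in aged control and 15 and 24 in aged enriched samples, with 46 and 83 in young control and 63 and 62 in young enriched. The log2 difference was -0.82 ± 0.19 (SE, limma adjusted p = 0.0220). On chromosome 2 at 172 to 173 Mb the aged control samples held 84 and 47 peaks and the aged enriched samples 21 and 20, with 39 and 79 in young control and 61 and 53 in young enriched (log2 -0.81 ± 0.19 SE, limma adjusted p = 0.0220). This window stood just inside the density rule, at a mean of 50.5.

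The 1 window that was higher in aged enriched mice lay on chromosome 13 at 43 to 44 Mb. It held 59 and 30 peaks in aged control and 36 and 50 in aged enriched samples, with 53 and 102 in young control and 77 and 72 in young enriched. The normalised counts were 996 and 789 in aged control, 1409 and 1622 in aged enriched, and 1211 to 1339 in young samples. The log2 difference was 0.77 ± 0.18 (SE, limma adjusted p = 0.0220). The other 8 called windows lay on chromosomes 2, 4, 5 and 17, with log2 differences of -0.81 to -0.59 and limma adjusted p of 0.0220 to 0.0484. Among them was chromosome 4 at 140 to 141 Mb, one of the 10 densest (-0.80 ± 0.19).

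In normalised counts, the 2 aged groups did not overlap in any of the 12 called windows. These windows were called on the same values, so the separation adds no support to the calls. Over all dense windows, both aged enriched samples were below both aged control samples in 108 (39.6%, against 18.5% of tested windows) and above both in 24 (8.79%, against 26.3%). The calls moved with single samples and settings. Limma called 0 dense windows from the 4 aged samples alone, 0 without aged control replicate 2, without young enriched replicate 1 or without young enriched replicate 2, and 1 without either young control sample. It called 2 without aged control replicate 1. Without aged enriched replicate 2 it called 18 (16 lower and 2 higher, 6.59% against 5.86% of the windows tested in that fit), among them 9 of the 12. The count was 85 without aged enriched replicate 1 (78 lower and 7 higher, 31.1% against 18.7%). It called 0 with peaks of score 100 or more only, and 51 with equally long lists (49 lower and 2 higher, 18.7% against 9.07%). The sign of the difference was kept in each of these fits by all 12 windows. Leaving out a young sample, or all of them, cannot change the aged difference itself. The other fits reuse counts by which the 12 windows were called, so the kept sign is no independent support.

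**Figure D4:**
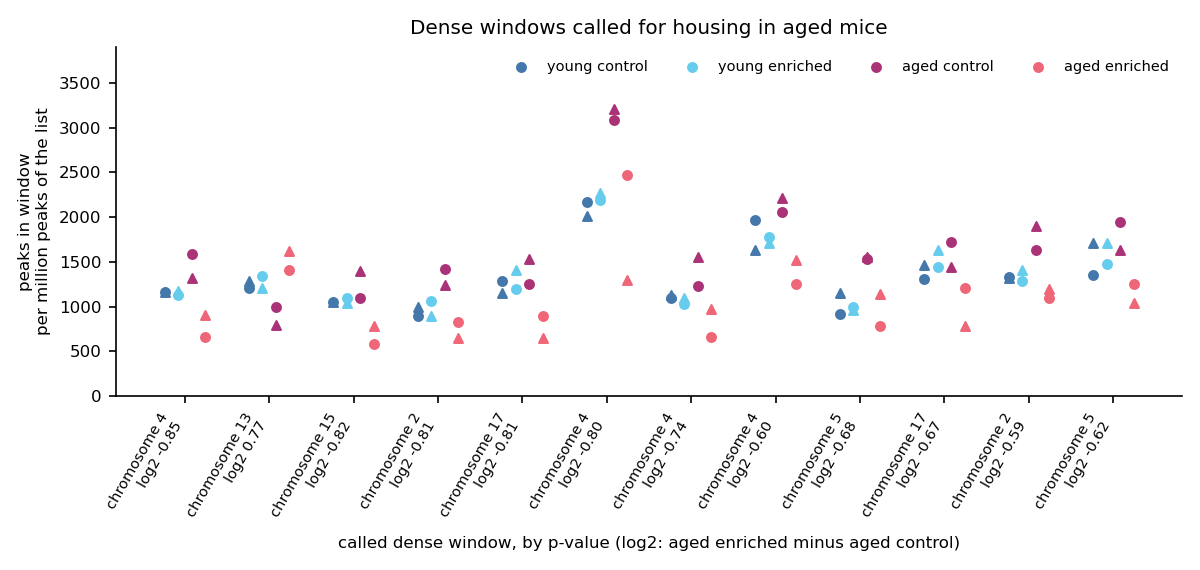
Normalised counts (peaks in the window per 1000000 peaks of the list) are plotted for the 12 dense windows called by limma for housing in aged mice, ordered by p-value, with 1 point for each of the 8 samples (colour is the group, circles are replicate 1 and triangles replicate 2). The log2 difference under each chromosome name is aged enriched minus aged control. The aged groups do not overlap in any of the 12, which were called on these same values.

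In young mice limma called 0 dense windows for housing, against 0% of all tested windows, and 0 dense windows had an unadjusted p under 0.05 (0.969% of all tested did). The count of calls was also 0 when any 1 of the 8 samples was left out. The differences ran from -0.35 to 0.33 with a median of 0.03. The extremes were chromosome 15 at 96 to 97 Mb (log2 0.33 ± 0.19 SE) and chromosome 1 at 137 to 138 Mb (-0.35 ± 0.21), both with a limma adjusted p of 0.996. On chromosome 1 at 137 to 138 Mb the young control samples held 62 and 104 peaks and the young enriched samples 70 and 56.

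The difference between the housing effects in aged and in young mice, tested as the interaction in limma, passed in 0 dense windows, against 0.0646% of all tested windows, with 37 dense windows at an unadjusted p under 0.05 (13.6%, against 11.3%). The smallest p was on chromosome 5 at 112 to 113 Mb (log2 -0.86 ± 0.25 SE, limma adjusted p = 0.323), and the smallest for a positive value on chromosome 13 at 43 to 44 Mb (0.74 ± 0.25, 0.350). For the interaction limma called 41 dense windows without aged enriched replicate 1, against 5.44% of the windows tested in that fit, and 39 of the 41 were negative (14.3% of dense windows, against 3.45%). It called 1 without aged enriched replicate 2 (0.366%, against 0.258%).

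The aged housing difference ran in 1 order over density. Its median log2 value was 0.47 in windows with a mean of 5 to under 15 peaks, 0.21 in those with 15 to under 25 and 0.09 in those with 25 to under 35. It was -0.06 at 35 to under 50, -0.16 at 50 to under 75, -0.19 at 75 to under 100 and -0.31 at 100 or more, where 26 of 27 windows were below 0. In young mice the medians of the same classes lay between -0.03 and 0.05, and for aged minus young they went from -0.09 to 0.14. The classes were set from counts in which the long aged control lists weigh more than the aged enriched ones. The medians by class are from the fit of all 8 samples with 1 peak added to each count only. Over all tested windows the aged median was 0.11 in that fit, 0.08 with 0.25 peaks added and 0.21 with 4. In dense windows these medians were -0.19, -0.20 and -0.14. With the addition in proportion to list length they were 0.06 in all tested and -0.20 in dense windows. Without aged enriched replicate 2 the aged median was -0.07 in dense and 0.09 in all tested windows. Under quantile normalization these medians were -0.05 and -0.01. With the 273 densest windows chosen on the 4 young lists alone, which shared 258 windows (94.5%) with the rule, the aged median was -0.17. Of these 273 windows limma called 2 higher and 10 lower, against 2.39% and 1.23% of all tested windows.

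**Figure D5:**
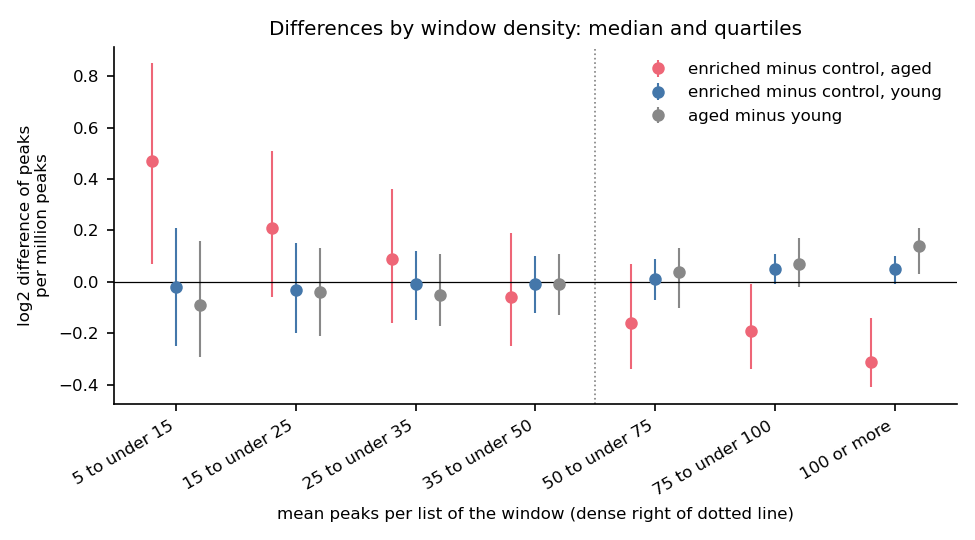
The log2 difference in normalised counts is plotted against the mean number of peaks per list of the window, as the median (point) and quartiles (line) over the windows of a class, for housing in aged mice, housing in young mice, and aged minus young. In this fit of all 8 samples the aged housing medians fall from 0.47 to -0.31, while those for young housing stay between -0.03 and 0.05.

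A dense window differed between the 8 samples in normalised count by a median of 1.5 times, from 1.16 to 2.99 times. The most even was chromosome 4 at 154 to 155 Mb, with normalised counts of 1413 to 1644, and the next chromosome 13 at 51 to 52 Mb, with a ratio of 1.17. The least even was chromosome 5 at 123 to 124 Mb, where aged enriched replicate 1 had 1840 and replicate 2 had 616 and the other 6 samples lay between 1183 and 1502. The extremes there were the 2 samples of 1 group. The next, chromosome 4 at 140 to 141 Mb, had a ratio of 2.47, with 3088 and 3211 in aged control and 2466 and 1297 in aged enriched samples.

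Across the 273 windows, 90 had their highest normalised count in aged control replicate 2 and 66 in aged control replicate 1, while 112 had their lowest in aged enriched replicate 2. The Spearman correlation between 2 samples over the 273 windows, a description of lists that share the genome and the rule, was 0.81 to 0.89 between young samples and 0.57 to 0.84 between aged samples, and 0.57 to 0.74 for the pairs with aged enriched replicate 2.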

How the data were processed

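Hippocampal 5hmC was measured in 8 mouse samples. The deposited files are 1 peak list per sample, with a position and a score per peak. Per the submitters' processing notes, the authors used CASAVA 1.4, Bowtie 0.12.9, MACS 1.4.2 and build mm9. The sources used here give no settings, background library or read depth. The score deposited by the authors is the peak caller's (-10 log10 of p).

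The dense windows, tests and lists were chosen with earlier results of these data known. Peaks were counted by midpoint in 1 Mb windows of chromosomes 1 to 19 (Python 3.11.15, pandas 2.3.3). Windows with a mean of 5 or more peaks were tested with limma 3.58.1 (R 4.3.3, trend, 4 group means with 1 shared spread) on log2 of the count plus 1 per 1000000 peaks of the list. A count model was not used, since a peak count is not a read count. Single values used exact permutation tests. Named are the 10 densest windows, 3 windows at each side of the threshold, called windows with the smallest p in each direction (or, with no call, the smallest p), the 2 most and 2 least even windows and the 5 shared regions with the highest median score. On simulated counts for aged against young, limma recovered 52.0% of 25 dense windows changed by 1.5-fold and 93.8% of 16 changed by 2-fold. It made 0 false calls among 232. The simulation drew windows independently, with the same spread in every list and no outlying library. These rates therefore do not carry over to the measured lists.

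The labels do not say whether equal replicate numbers pair samples, and the main fit used no pairing. Alternatives covered the pseudocount, filter, scaling, score threshold, list length, density threshold, the lists that choose the windows and single samples.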

Additional observations from a re-analysis of the deposited data

How the results depend on the processing

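For housing in aged mice, limma called 12 dense windows (4.40%, against 3.62% of all tested windows). With a pseudocount of 0.25 peaks it called 6 (2.20%, against 1.36%). A pseudocount in proportion to list length also gave 6 (2.20%, against 1.36%). A pseudocount of 4 peaks gave 12 lower and 3 higher (5.49%, against 9.82%). There were 2 under quantile normalization (0.733%, against 0.711%), both higher. Of the 12 windows, 1 was still called under quantile normalization and all 12 kept the sign of their difference. There were 51 with equally long lists (18.7%, against 9.07%) and 5 of 165 with windows from a mean of 60 (against 3.62% of all tested windows). Neither peaks of score 100 or more nor the 4 aged samples alone gave a call in any tested window. Leaving out 1 sample gave 0 to 85 for this comparison, 0 to 39 for age, 0 to 46 for housing over both ages, 0 to 41 for the interaction and 0 for housing in young mice. The young housing value of chromosome 1 at 137 to 138 Mb reversed to 0.24 with peaks of score 100 or more.

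The share of peaks in dense windows, aged minus young, reversed to -2.16 points with equally long lists, and ran from 0.483 to 3.25 when 1 sample was left out. Enriched minus control ran from -3.31 to -1.32. Within aged mice it was -10.1 with peaks of score 100 or more, -9.68 with equally long lists and -1.07 with each sample's windows chosen on the other 7 lists (220 to 319 windows). With 273 windows chosen that way, an alternative added after seeing the data like the choice on the 4 young lists, it was -5.19. In young mice it ran from -0.0432 to 1.28. Log2 coverage ran from -1.62 to -0.81 for age and from -1.24 to -0.44 for housing, the log2 width ratio from 0.10 to 0.12 and the score difference from 6.69 to 8.40 points. Regions shared by all samples made up 0.979% with peaks of score 100 or more, 2.07% with windows from a mean of 40, 2.80% from a mean of 60 and 2.45% to 4.60% when 1 sample was left out, since fewer samples then have to share a region.

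With the replicate block, limma called 1 dense window higher and 13 lower for housing in aged mice (5.13%, against 4.72% of all tested windows). The 12 of the fit without the block were among them. For the other comparisons it called 0 dense windows, and 0.0646% of all tested windows at most. The deviations of same-numbered samples correlated by -0.14 to 0.10. With 2 samples per group this cannot decide whether the numbers stand for a pairing. The causes of these shifts were not tested. The number of reads behind a peak is unknown, and 2 samples per group limit what a window could show.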
